A study of Rattus norvegicus with 8 samples.

Results

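The genes described here are 41 genes of DNA replication and S phase, chosen by name as components of the replication machinery, its nucleotide supply and its G1/S control. The list was drawn up with earlier results of these data known. Of the 41 genes, 38 had at least 1 probe set annotated to that single symbol among the 31099 probe sets of the array. Cdc6, Gins2 and Rrm2 had none and were not analysed here. All 38 were bright enough to pass a filter that left out probe sets averaging below 4.81 on the log2 scale, and they make up 38 of the 11377 genes tested. The brightest probe set stands for each gene. Levels are deposited log2 values, and they are set side by side only across arrays of the same gene.

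The cells were vascular smooth muscle cells freed by enzymes from aortas (thoracic part) of Sprague-Dawley rats, all male, and grown in M199 medium with 10% serum. All cells were transfected for 48 h, with a non-targeting siRNA (siNTC) or an siRNA against rat Giver (siGiver), a long non-coding RNA of these cells, and then kept for 3 h with PBS or with angiotensin II (Ang II), a vasoconstrictor peptide hormone, at 100 nM. Each of the 4 combinations was measured on 2 arrays. The labels do not say that these came from separate cultures or animals, so p-values measure only how these arrays vary, and that variation may be technical. The annotation names no probe set for Giver, and the knockdown was not analysed here.

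Before a cell copies its DNA, origins are licensed when the origin recognition complex, Cdc6 and Cdt1 load the ring-shaped MCM helicase. At the start of S phase, Cdc45 and the GINS complex turn MCM into the active helicase. Polymerase alpha and primase then lay primers, polymerases epsilon and delta extend them, and the sliding clamp Pcna, its loader Rfc, the single-strand binding protein Rpa, the flap nuclease Fen1 and the ligase Lig1 complete both strands. Many of these genes are textbook targets of E2F transcription factors, which retinoblastoma family proteins hold back in resting cells. Smooth muscle cells in a healthy artery wall rarely divide, whereas cultured ones grown with serum do.

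The arrays of a group agreed closely, with a correlation of 0.998 in each group. For the 38 genes, the median difference between the 2 arrays of a group was between 0.03 and 0.08 log2. The largest such differences were those of Slbp, at 0.34, 0.36 and 0.36 in siNTC Ang II, siGiver PBS and siGiver Ang II cells, so its comparisons are the least precise. Markers of smooth muscle were bright, with 9 of 9 above the filter value, and the 5 endothelial markers with a probe set, of 6 listed, were all below it. Of 6 macrophage markers 4 were above it, and of 5 fibroblast markers all 5, so the culture is not shown to be free of other cells. The mean log2 level over the smooth muscle markers was 10.80 to 10.94 on siNTC arrays and 11.23 to 11.29 on siGiver arrays. For the fibroblast markers it was 7.68 to 8.06 and 7.89 to 8.10, and for the macrophage markers 5.25 to 5.43 and 5.13 to 5.37. Their part in the results was not tested.

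Replication and S phase genes were higher in siGiver than in siNTC cells across nearly every role. In PBS, 34 of the 38 were higher and none lower (limma adjusted p under 0.05), with a median log2 difference of 0.54 and a range from -0.07 to 0.95. Over all genes tested, 16.0% were called higher, 19.1% lower and 35.0% in either direction, with a median of -0.0047. With Ang II, 29 were higher and Tyms was lower, with a median of 0.42, against 19.5% of all genes called higher, 24.8% lower and 44.3% in either direction, and a median of -0.03. Averaged over both treatments, 34 of the 38 were higher and none lower, with a median of 0.47, against 23.1% of all genes called higher, 29.1% lower and 52.2% in either direction. In these bulk samples, more cells in S phase and more of these transcripts per cell cannot be told apart.

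**Figure D1:**
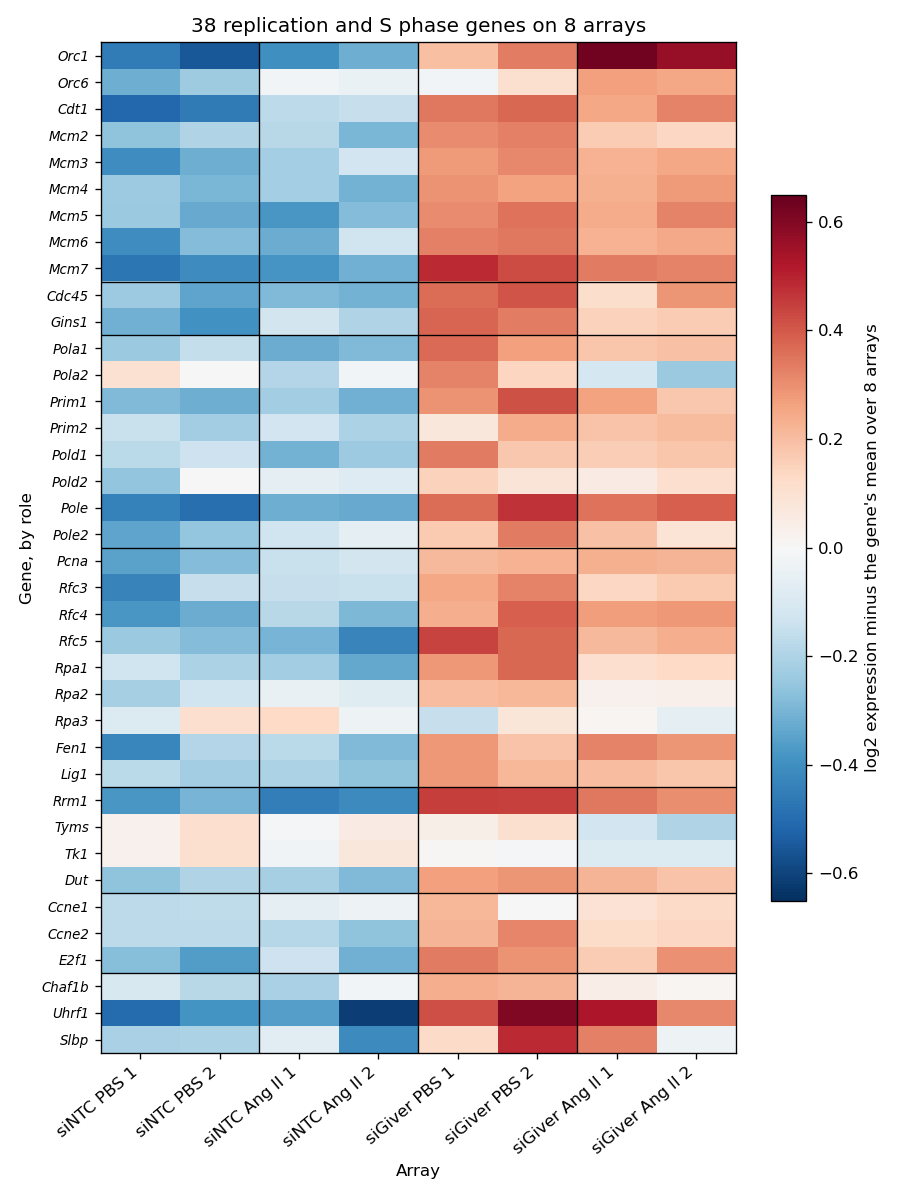
Colour gives each gene's log2 expression minus its own mean over the 8 arrays, with 38 genes in rows (ordered as licensing, helicase activation, polymerases, clamp and lagging strand, nucleotide supply, G1/S control and chromatin) and arrays in columns. On the siGiver arrays 33 to 37 of the 38 genes lie above their own mean, and on the siNTC arrays 1 to 3 do. The same counts were not made over all genes tested.

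The same arrays can be read gene by gene. On the siNTC arrays, 3, 3, 1 and 2 genes lay above their own 8-array mean, and on the siGiver arrays 36, 37, 35 and 33 did. These array counts were not made over all genes tested. Averaged over both treatments, the siRNA difference was above 0 in 35 of the 38, against 5298 of the 11377 genes tested. Of the 34 genes called higher in PBS, 29 were also called higher with Ang II. Over all genes tested, 16.0% were called higher in PBS and 19.5% with Ang II, and how many were called in both was not counted. The arrays differ between those comparisons, but each gene's spread comes from 1 fit. The other 5, Pold2, Rpa2, Ccne1, Chaf1b and Slbp, were called in PBS alone, and of these only Rpa2 passed the test of a difference between treatments, a call lost when any 1 of the 8 arrays was left out.

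Promoters are shown for the 6 members with the largest averaged siGiver difference among those in the RefSeq promoter table. Each window holds 250 bases before and 50 bases after the annotated start, 5′ to 3′ in the direction of the gene, from RefSeq on build GRCr8. The windows are Uhrf1 (the first of its listed starts) at chr9:1221813-1222112 on the forward strand, Mcm7 at chr12:22163129-22163428 on the reverse strand, Pole at chr12:52053613-52053912 on the reverse strand, Rrm1 at chr1:166235654-166235953 on the forward strand, Cdt1 at chr19:67528999-67529298 on the forward strand and Rfc5 at chr12:44868072-44868371 on the forward strand. Capitals mark matches, on either strand, to the E2F-type motif TTCGCGC, to its variants spelled TTGGCGC or else TTCCCGC, and to the CCAAT box, and overlapping matches run together.
Uhrf1: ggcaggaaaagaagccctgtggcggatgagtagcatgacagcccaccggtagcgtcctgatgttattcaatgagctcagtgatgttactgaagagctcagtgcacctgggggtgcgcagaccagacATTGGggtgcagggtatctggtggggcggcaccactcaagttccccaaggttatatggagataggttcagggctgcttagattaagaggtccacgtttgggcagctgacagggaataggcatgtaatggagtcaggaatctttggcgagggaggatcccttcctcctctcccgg
Mcm7: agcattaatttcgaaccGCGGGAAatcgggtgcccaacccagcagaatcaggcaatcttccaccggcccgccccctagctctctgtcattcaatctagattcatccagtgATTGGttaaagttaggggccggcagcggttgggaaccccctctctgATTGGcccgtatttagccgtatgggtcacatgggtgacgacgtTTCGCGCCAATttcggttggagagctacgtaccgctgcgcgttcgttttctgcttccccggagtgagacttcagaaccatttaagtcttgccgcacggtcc
Pole: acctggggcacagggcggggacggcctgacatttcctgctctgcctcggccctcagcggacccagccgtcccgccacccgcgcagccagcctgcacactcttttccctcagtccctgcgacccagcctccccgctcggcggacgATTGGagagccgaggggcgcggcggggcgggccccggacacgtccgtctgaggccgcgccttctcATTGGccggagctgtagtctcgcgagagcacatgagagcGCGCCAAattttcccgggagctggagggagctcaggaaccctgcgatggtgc
Rrm1: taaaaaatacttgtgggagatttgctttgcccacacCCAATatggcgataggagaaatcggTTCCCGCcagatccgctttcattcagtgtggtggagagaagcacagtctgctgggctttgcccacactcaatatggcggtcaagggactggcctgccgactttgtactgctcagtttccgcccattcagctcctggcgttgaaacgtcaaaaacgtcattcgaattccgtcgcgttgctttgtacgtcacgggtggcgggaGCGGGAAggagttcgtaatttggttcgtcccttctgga
Cdt1: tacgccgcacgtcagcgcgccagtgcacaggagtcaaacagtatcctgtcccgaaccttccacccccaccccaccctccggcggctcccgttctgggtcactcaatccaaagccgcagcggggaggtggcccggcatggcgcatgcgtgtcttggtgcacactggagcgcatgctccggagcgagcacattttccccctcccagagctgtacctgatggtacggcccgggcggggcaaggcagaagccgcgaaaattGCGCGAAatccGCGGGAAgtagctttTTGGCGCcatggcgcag
Rfc5: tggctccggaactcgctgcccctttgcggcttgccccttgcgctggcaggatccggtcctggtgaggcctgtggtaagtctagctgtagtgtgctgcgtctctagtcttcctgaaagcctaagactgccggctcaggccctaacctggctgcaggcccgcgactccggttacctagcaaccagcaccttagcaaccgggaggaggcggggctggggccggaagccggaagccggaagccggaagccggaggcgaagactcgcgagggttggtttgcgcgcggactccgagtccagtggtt

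In the Mcm7 window, a TTCGCGC match starting 51 bases before the gene start overlaps a TTGGCGC match on the other strand and a CCAAT box. Cdt1 has 3 E2F-type matches, all within 50 bases after the start, while Rrm1 has a pair of TTCCCGC matches and Pole has 1 E2F-type match across the start. The Uhrf1 window shown has a CCAAT box and no E2F-type match, while the windows of its other listed starts hold 1 and 2 E2F-type matches. Rfc5 has no match to these letters, and its siGiver difference was 0.63 ± 0.040, against 0.64 ± 0.033 for Cdt1 (SE, averaged over treatments). Whether the matches go with the size of the siGiver difference was not tested. Among the members, 34 have a promoter in the table, and 20 of these (58.8%) hold an E2F-type match. The share is 7.97% over the first listed promoter of all 27457 genes of the table and 14.7% over the 9484 of these that were tested on the arrays. At least 2 E2F-type matches were found in 11 of the 34 (32.4%), against 1.59% of the genes tested. The CCAAT box was found in 19 (55.9%), against 37.8%. The members are known E2F targets in part, so these shares describe the list rather than its response to siGiver. Uhrf1 and Dut have several starts in the table, of which the first was counted.

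The licensing genes rose as a group in siGiver cells, with 9 of 9 measured genes higher in PBS and 9 of 9 with Ang II. Mcm7, a subunit of the MCM ring, stood at 9.08 and 9.15 log2 in siNTC PBS, 9.17 and 9.24 in siNTC Ang II, 10.04 and 9.98 in siGiver PBS, and 9.89 and 9.88 in siGiver Ang II. Every siGiver array lay above every siNTC array. The difference was 0.90 ± 0.050 in PBS (SE of the fit, 2 arrays per group, limma adjusted p = 4.35e-05), or 1.86-fold, and 0.68 ± 0.050 with Ang II (adjusted p = 5.18e-05), or 1.60-fold. The other MCM subunits were higher by between 0.54 (Mcm2 and Mcm4) and 0.68 (Mcm6) in PBS. With Ang II they were higher by between 0.39 (Mcm2) and 0.61 (Mcm5). Mcm5 in particular read 7.83 and 7.74, then 7.69 and 7.79 in siNTC cells without and with Ang II, against 8.38 and 8.42, then 8.31 and 8.39 in siGiver cells. Its difference was thus nearly the same size in both treatments, 0.61 ± 0.058.

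Orc1, the ATPase subunit of the origin recognition complex, was dim in siNTC cells and brighter in siGiver cells. Its arrays read 4.81 and 4.72 in siNTC PBS, 4.87 and 4.95 in siNTC Ang II, 5.46 and 5.60 in siGiver PBS, and 5.89 and 5.83 in siGiver Ang II. The siNTC values lie around the filter value, so they are close to the dim end of the scale, while the siGiver arrays are all higher. The difference was 0.77 ± 0.065 in PBS (adjusted p = 0.00016) and 0.95 ± 0.065 with Ang II (adjusted p = 4e-05), and no fold is given because the siNTC PBS mean lies under the filter value. Orc6, another subunit of that complex, was higher by 0.32 ± 0.056 and 0.29 ± 0.056, and both of its dimmer probe sets were higher too, by 0.33 and 0.40 in PBS and 0.39 and 0.51 with Ang II. Cdt1, which brings MCM to origins, read 7.07 and 7.12, then 7.41 and 7.43 in siNTC cells without and with Ang II, and 7.92 and 7.95, then 7.83 and 7.90 in siGiver cells. The groups do not overlap, and the gap was wider in PBS, 0.84 ± 0.047 (adjusted p = 4.35e-05), than with Ang II, 0.45 ± 0.047 (adjusted p = 0.00026).

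**Figure D2:**
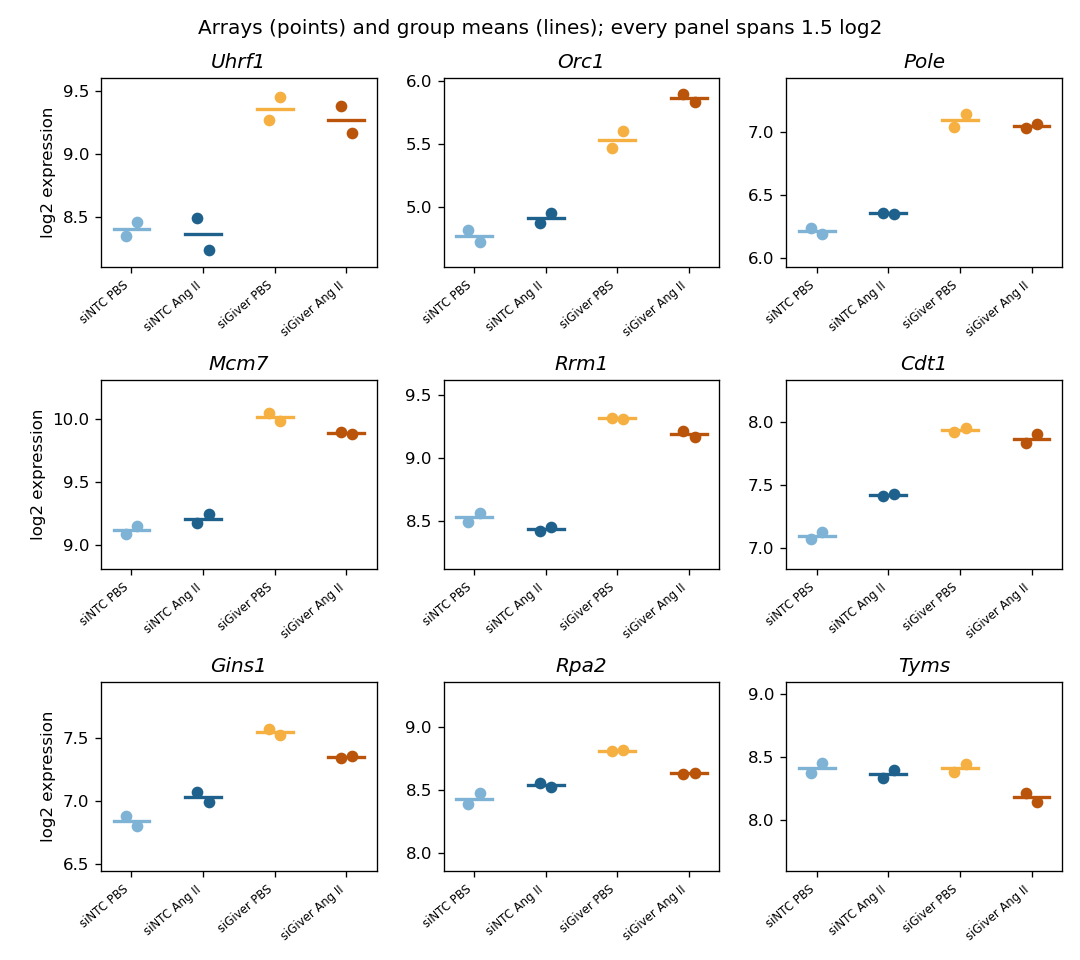
Points are arrays and lines are group means of log2 expression for 9 genes in the 4 groups, and each vertical axis spans the same width. Uhrf1, Orc1, Pole, Mcm7, Rrm1 and Cdt1 lie higher on all siGiver arrays, Gins1 and Rpa2 differ more in PBS than with Ang II, and Tyms is lowest in siGiver Ang II cells.

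Of the genes that activate the helicase, Cdc45 and Gins1 were measured and both were higher. Cdc45 was higher by 0.68 ± 0.068 in PBS and 0.50 ± 0.068 with Ang II. Its brightest probe set has the suffix that Affymetrix gives to sets with probes that may also match other transcripts. A pair of its other probe sets gave 0.67 and 0.59 in PBS and 0.62 and 0.74 with Ang II, and its dimmest lay below the filter value. Gins1, a GINS subunit, stood at 6.88 and 6.80 in siNTC PBS, 7.07 and 7.0 in siNTC Ang II, 7.57 and 7.53 in siGiver PBS, and 7.34 and 7.36 in siGiver Ang II. Its siGiver arrays were all higher, by 0.71 ± 0.051 in PBS (adjusted p = 9.04e-05) and 0.32 ± 0.051 with Ang II (adjusted p = 0.00185).

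Among the polymerase and primase genes, 7 of 8 were higher in PBS and 6 of 8 with Ang II. Pole, the catalytic subunit of the leading-strand polymerase epsilon, read 6.24 and 6.19 in siNTC PBS, 6.36 and 6.35 in siNTC Ang II, 7.04 and 7.15 in siGiver PBS, and 7.03 and 7.07 in siGiver Ang II. The siGiver arrays sat apart from all siNTC arrays. The difference was 0.88 ± 0.051 in PBS (adjusted p = 4.48e-05) and 0.69 ± 0.051 with Ang II (adjusted p = 5.32e-05), or 1.84-fold and 1.62-fold. Its accessory subunit Pole2 was higher by 0.55 ± 0.071 and 0.23 ± 0.071, and the second call was lost when siNTC Ang II replicate 1, siNTC Ang II replicate 2 or siGiver Ang II replicate 1 was left out. Prim1, the catalytic primase subunit, was higher by 0.65 ± 0.060 and 0.49 ± 0.060, and its partner Prim2 by 0.34 ± 0.066 and 0.36 ± 0.066. Pola1, the catalytic subunit of polymerase alpha, was higher by 0.51 and 0.49, and Pold1, that of polymerase delta, by 0.41 and 0.44.

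For the accessory subunits of polymerases alpha and delta, the siRNA difference was not called or the call was not stable. Pola2, the B subunit of polymerase alpha, read 7.01 and 6.92 in siNTC PBS, 6.73 and 6.90 in siNTC Ang II, 7.24 and 7.06 in siGiver PBS, and 6.80 and 6.67 in siGiver Ang II. Its arrays were separate in PBS and overlapped with Ang II. Its siRNA differences, 0.18 ± 0.087 in PBS and -0.08 ± 0.087 with Ang II, did not pass (adjusted p = 0.145 and 0.522). Pold2 was called in PBS at 0.25 ± 0.080 (adjusted p = 0.0482) and did not pass with Ang II, at 0.15 ± 0.080, where it passed without either siNTC PBS array (adjusted p = 0.0423). Without siNTC PBS replicate 1 its PBS difference was 0.12 (adjusted p = 0.184), and the call was lost without any 1 of the arrays other than siNTC PBS replicate 2. Whether a subunit differed from its partner was not tested.

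**Figure D3:**
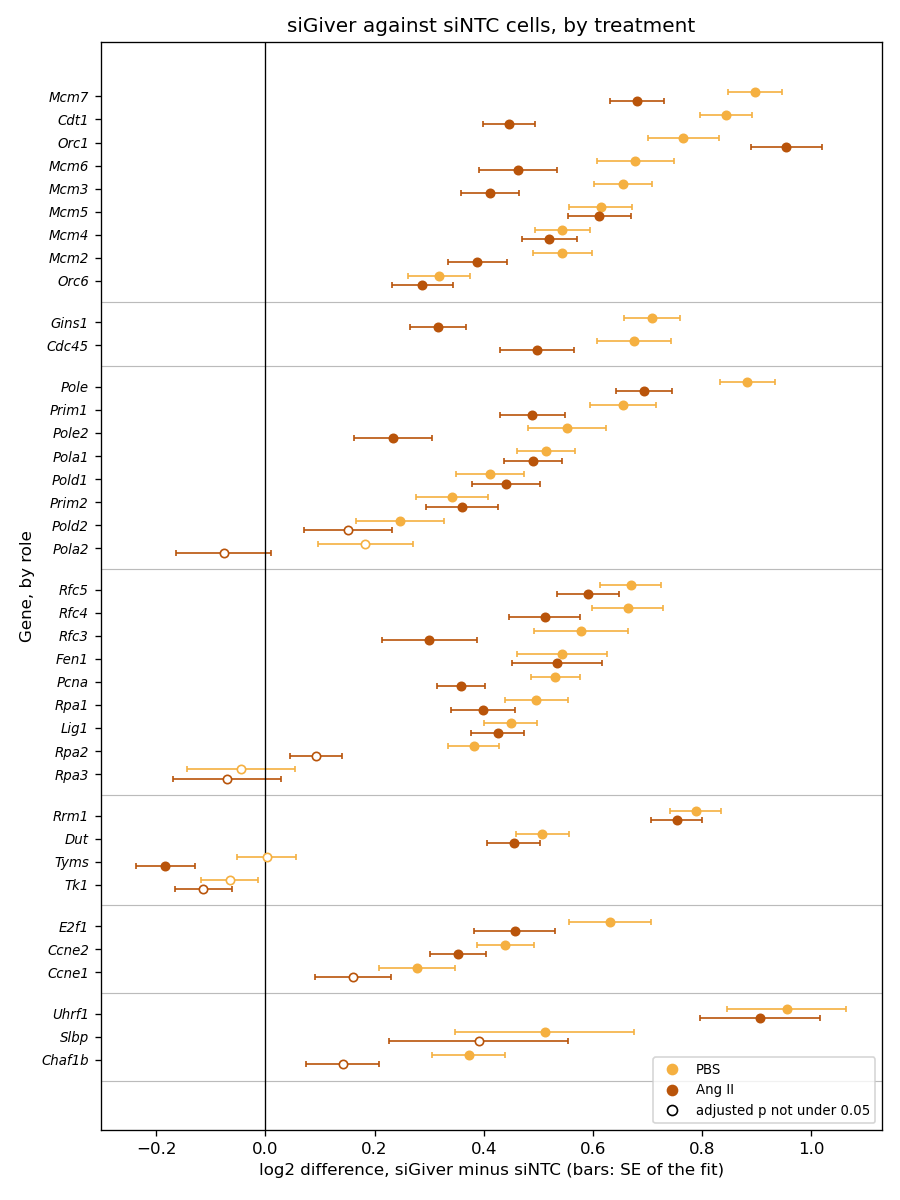
Points give the log2 difference between siGiver and siNTC cells in PBS (light) and with Ang II (dark) for each gene, with the SE of the fit as bars, and filled points passed the test. All differences called in PBS are to the right of 0, and with Ang II only the filled Tyms point, at -0.18, is to the left.

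At the fork, 8 of 9 clamp, loader, Rpa and lagging-strand genes were higher in PBS and 7 of 9 with Ang II. Pcna, the sliding clamp, read 10.72 and 10.79 in siNTC PBS, 10.93 and 10.95 in siNTC Ang II, 11.28 and 11.30 in siGiver PBS, and 11.30 and 11.29 in siGiver Ang II. No siNTC array reached the siGiver arrays, and the difference was 0.53 ± 0.045 in PBS (1.44-fold) and 0.36 ± 0.045 with Ang II (1.28-fold). The clamp loader genes Rfc5, Rfc4 and Rfc3 were higher by 0.67, 0.66 and 0.58 in PBS and by 0.59, 0.51 and 0.30 with Ang II. For Rfc3 the call with Ang II (adjusted p = 0.0249) was lost without any 1 of the 4 Ang II arrays, with values of 0.28 to 0.32. Fen1, which trims flaps between lagging-strand fragments, was higher by 0.54 ± 0.082 and 0.53 ± 0.082, and Lig1, which joins the fragments, by 0.45 ± 0.048 and 0.43 ± 0.048.

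The genes of the trimeric single-strand binding protein did not move as one. Rpa1, the large subunit, was higher by 0.50 ± 0.058 in PBS and 0.40 ± 0.058 with Ang II. Its arrays read 9.11 and 9.03 in siNTC PBS, 9.01 and 8.90 in siNTC Ang II, 9.52 and 9.61 in siGiver PBS, and 9.34 and 9.36 in siGiver Ang II. Rpa2, the middle subunit, read 8.39 and 8.47 in siNTC PBS, 8.55 and 8.53 in siNTC Ang II, 8.81 and 8.82 in siGiver PBS, and 8.63 and 8.64 in siGiver Ang II. It was higher in PBS, by 0.38 ± 0.047 (adjusted p = 0.000772), and did not pass with Ang II, at 0.09 ± 0.047 (adjusted p = 0.151), although the arrays still did not overlap. Rpa3, the small subunit, lay between 9.20 and 9.48 on all arrays with overlapping groups, and its differences were -0.05 ± 0.099 and -0.07 ± 0.099 (adjusted p = 0.763 and 0.606).

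Nucleotide supply genes were divided, with 2 of 4 genes higher in PBS, and 2 higher and 1 lower with Ang II. Rrm1, the large subunit of ribonucleotide reductase, read 8.49 and 8.56 in siNTC PBS, 8.42 and 8.45 in siNTC Ang II, 9.32 and 9.31 in siGiver PBS, and 9.21 and 9.17 in siGiver Ang II. The groups stood far apart relative to their spread, with differences of 0.79 ± 0.047 in PBS (adjusted p = 4.77e-05, 1.73-fold) and 0.75 ± 0.047 with Ang II (adjusted p = 2.81e-05, 1.69-fold). Dut, which removes dUTP from the nucleotide pool, was higher by 0.51 ± 0.049 and 0.45 ± 0.049, and its dimmer probe set by 0.17 and 0.24.

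The thymidylate genes were not called higher on the probe sets that stand for them. Tyms, thymidylate synthase, read 8.38 and 8.45 in siNTC PBS, 8.34 and 8.40 in siNTC Ang II, 8.38 and 8.45 in siGiver PBS, and 8.22 and 8.15 in siGiver Ang II. The PBS groups overlapped fully and the difference there was 0.0021 ± 0.054 (adjusted p = 0.981), while with Ang II Tyms was lower by -0.18 ± 0.054 (adjusted p = 0.0262), or 1.14-fold. That call was lost with array medians subtracted (-0.16, adjusted p = 0.0527) and without siNTC Ang II replicate 1, siNTC Ang II replicate 2 or siGiver Ang II replicate 2, at -0.21, -0.15 and -0.15. Tk1, the salvage enzyme thymidine kinase, read between 8.37 and 8.56 on its brightest probe set, with differences of -0.07 ± 0.052 and -0.11 ± 0.052 that did not pass. Its other probe sets gave 0.21 and 0.28 in PBS, of which the dimmest passed (adjusted p = 0.0182 among all probe sets), and 0.07 and 0.09 with Ang II, so the probe sets of Tk1 disagree.

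In G1/S control, E2f1, the transcription factor, was higher by 0.63 ± 0.075 in PBS and 0.46 ± 0.075 with Ang II, on arrays of 6.62 to 6.85 in siNTC and 7.15 to 7.32 in siGiver cells. The cyclin genes Ccne1 and Ccne2, whose proteins activate Cdk2 at the start of S phase, were higher by 0.28 ± 0.070 and 0.44 ± 0.052 in PBS and by 0.16 ± 0.070 (not passing, adjusted p = 0.0998) and 0.35 ± 0.052 with Ang II. The PBS call of Ccne1 was lost without siNTC PBS replicate 1, siNTC PBS replicate 2 or siGiver PBS replicate 1, and its value without the last was 0.17. Its difference with Ang II, still 0.16, passed without either siGiver PBS array (adjusted p = 0.0275) and with only the arrays compared (adjusted p = 0.0391). For Ccne2 a second, dimmer probe set pointed the other way, at -0.34 in PBS and -0.33 with Ang II, neither of which passed. Averaged over both treatments, that probe set was called lower, at -0.33 (limma adjusted p = 0.0113 among all probe sets). The brightest was called higher there, at 0.40, so the probe sets of Ccne2 disagree. With the mean of its probe sets the difference of Ccne2 was 0.05 in PBS and 0.01 with Ang II and did not pass.

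Among chromatin genes, Uhrf1, which brings the maintenance DNA methyltransferase to newly copied DNA, had the largest difference of all members in PBS. It read 8.35 and 8.46 in siNTC PBS, 8.49 and 8.24 in siNTC Ang II, 9.27 and 9.45 in siGiver PBS, and 9.38 and 9.16 in siGiver Ang II. The siRNA groups are clear of each other although the arrays within a group differ more than for most members. The difference was 0.95 ± 0.11 in PBS (adjusted p = 0.000568) and 0.91 ± 0.11 with Ang II (adjusted p = 0.000482), or 1.94-fold and 1.87-fold. Chaf1b, a subunit of the histone chaperone CAF-1, was higher by 0.37 ± 0.067 in PBS and did not pass with Ang II, at 0.14 ± 0.067. Without siNTC Ang II replicate 2 its difference with Ang II was 0.24 and passed (adjusted p = 0.0246). Slbp, which binds the stem-loop of histone mRNAs, was called in PBS at 0.51 ± 0.16 (adjusted p = 0.0448) and did not pass with Ang II, at 0.39 ± 0.16 (adjusted p = 0.0902). The PBS call of Slbp was lost without siNTC PBS replicate 1, siNTC PBS replicate 2 or siGiver PBS replicate 2, and the value without the last was 0.33. With Ang II, Slbp passed without siGiver Ang II replicate 2, at 0.57 (adjusted p = 0.0437).

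**Figure D4:**
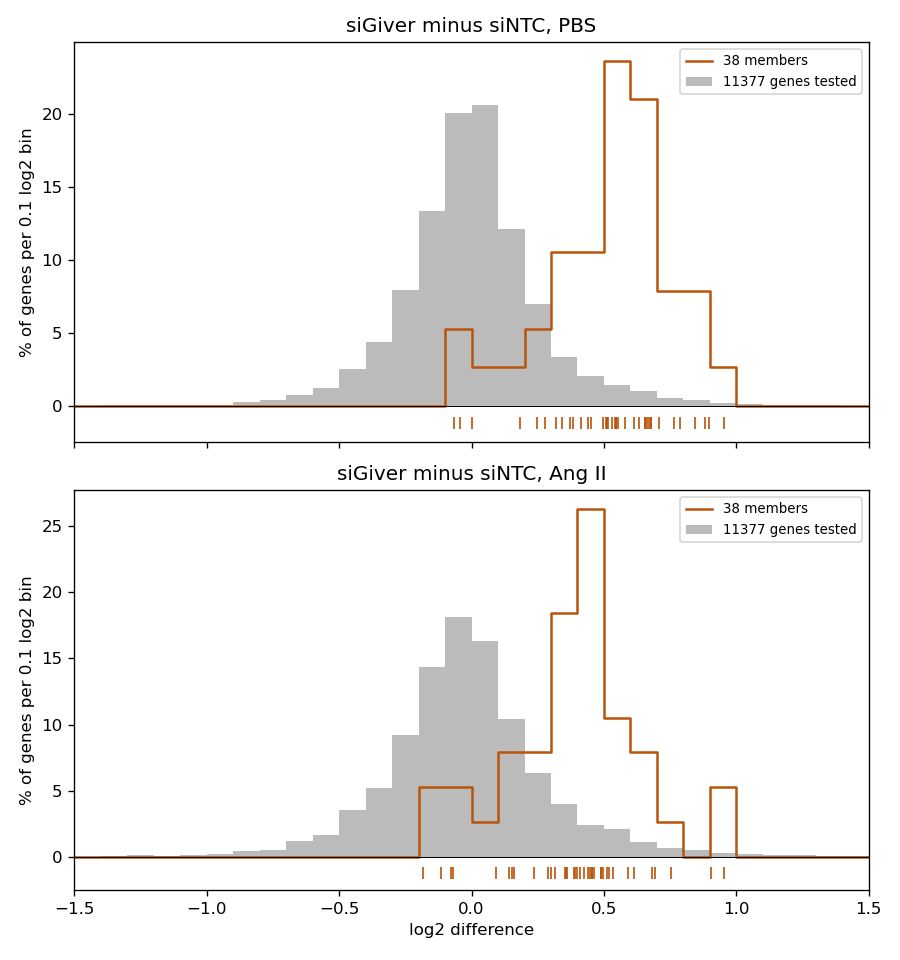
Bars give the share of the 11377 genes tested in each 0.1 log2 bin of the siGiver minus siNTC difference, and the line and ticks give the 38 replication and S phase genes, in PBS (upper panel) and with Ang II (lower panel). The members' medians are 0.54 and 0.42, against -0.0047 and -0.03 for all genes.

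Other genes of the pathway were also called higher more often than lower in siGiver cells, on lists chosen with earlier results of these data known. Over all genes tested, 16.0% were called higher and 19.1% lower in PBS, and 19.5% and 24.8% with Ang II. Of 33 further replication genes 28 were measured, and in PBS 17 were higher and 2 lower, with a median of 0.33, while with Ang II 16 were higher and 3 lower, with a median of 0.23. Those with the largest PBS differences were Timeless, of the fork protection complex, at 0.86 ± 0.062, the clamp loader gene Dscc1 at 0.86 ± 0.11, the helicase gene Recql4 at 0.77 ± 0.10 and Mcm8 at 0.71 ± 0.12. Pold4 and Pole4, small polymerase subunits, were lower by -0.34 ± 0.046 and -0.15 ± 0.046. Of 39 further S phase and E2F target genes 32 were measured, and 22 were higher and none lower in PBS, with a median of 0.50. With Ang II 20 were higher and 1 lower, with a median of 0.38. Dck, deoxycytidine kinase, was higher in PBS by 1.18 ± 0.064 (adjusted p = 4.2e-05), the histone chaperone gene Asf1b by 1.06 ± 0.067, the exonuclease gene Exo1 by 0.95 ± 0.088 and the histone acetyltransferase gene Hat1 by 0.91 ± 0.049. The S phase cyclin gene Ccna2 was higher by 0.83 ± 0.094, and E2f7 and E2f8, repressive E2F family members, by 0.56 ± 0.084 and 0.80 ± 0.066.

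Ang II for 3 h moved few of these genes in siNTC cells, in a share similar to that of all genes tested. In siNTC cells 2 of 38 were higher and none lower, against 3.96% of all genes called higher, 2.17% lower and 6.14% in either direction, and the members' median was 0.03 against 0.01 for all genes. Cdt1 rose by 0.33 ± 0.047 (adjusted p = 0.00854), and Orc6 by 0.25 ± 0.056 (adjusted p = 0.0467), from 7.48 and 7.57 to 7.78 and 7.76. The dimmer probe sets of Orc6 gave 0.13 and 0.28, and neither passed among all probe sets. The call of Cdt1 was lost without siNTC PBS replicate 1, siNTC Ang II replicate 1 or siNTC Ang II replicate 2 (0.30, 0.34 and 0.32). That of Orc6 was lost without any 1 of the 4 siNTC arrays (0.20 to 0.29) or either siGiver Ang II array. Pcna, Gins1 and Mcm3 had values of 0.18, 0.19 and 0.19 and did not pass, with adjusted p = 0.0586, 0.0696 and 0.0834. With a 50th percentile filter each of them passed (limma adjusted p = 0.0309, 0.0372 and 0.0462). Pcna also passed after cyclic loess normalization (adjusted p = 0.0469) and with trended, robust moderation (adjusted p = 0.00129).

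In siGiver cells 2 of 38 genes rose and 5 fell with Ang II, against 9.11% of all genes called higher, 7.17% lower and 16.3% in either direction. The share called in either direction was thus similar to that of all genes tested. The members' median was -0.09, against -0.03 for all genes. Orc1 rose by 0.33 ± 0.065 (adjusted p = 0.0141, 1.26-fold) and Orc6 by 0.22 ± 0.056 (adjusted p = 0.0402), from 7.78 and 7.90 to 8.07 and 8.05. Of the dimmer Orc6 probe sets, 1 gave 0.19 and did not pass among all probe sets. The other gave 0.39 and passed (limma adjusted p = 0.0199). Pola2 fell most, at -0.41 ± 0.087 (adjusted p = 0.0191), or 1.33-fold, and the siGiver arrays with and without Ang II did not overlap. Tyms (-0.23 ± 0.054), Rpa1 (-0.21 ± 0.058), Gins1 (-0.20 ± 0.051) and Rpa2 (-0.18 ± 0.047) fell with adjusted p between 0.0266 and 0.0464. None of these 7 calls remained when siGiver PBS replicate 1 was left out, where Orc1 was 0.26 (adjusted p = 0.0799) and Pola2 -0.32 (adjusted p = 0.103). Without siGiver PBS replicate 2, 3 calls were made, without either siGiver Ang II array 1, and without either siNTC Ang II array 4.

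**Figure D5:**
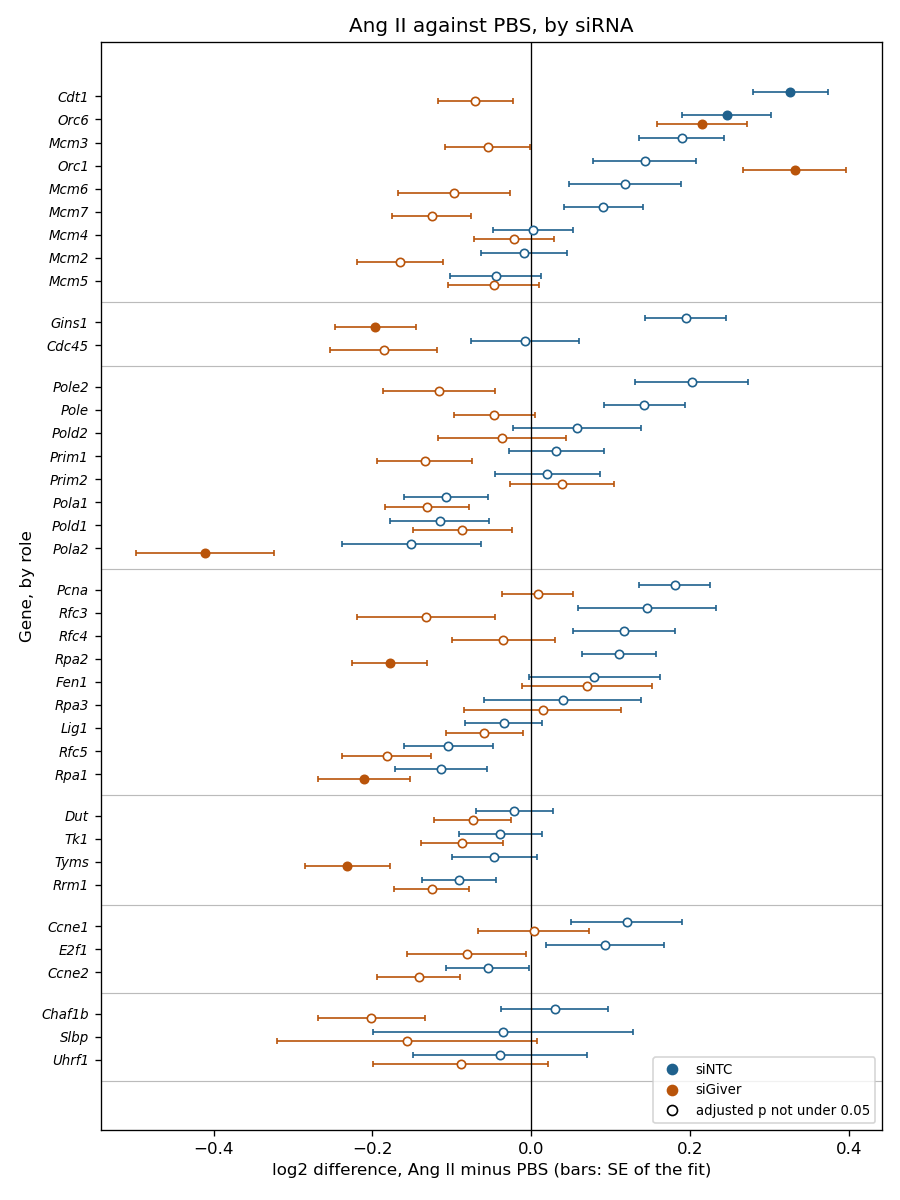
Points give the log2 difference between Ang II and PBS in siNTC cells (blue) and siGiver cells (brown) for each gene, with the SE of the fit as bars, and filled points passed the test. Filled points number 2 in siNTC cells and 7 in siGiver cells, and the largest in size is the -0.41 of Pola2 in siGiver cells.

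The interaction asks whether the Ang II effect differed between the siRNA arms, and a value below 0 means a lower Ang II difference in siGiver than in siNTC cells. Cdt1, Gins1 and Rpa2 passed, all downward, which is 3 of 38 genes against 2.87% of all genes called lower, 3.35% higher and 6.21% in either direction. Cdt1 stood at -0.40 ± 0.067 (adjusted p = 0.0151), joining 0.33 in siNTC cells and -0.07 in siGiver cells. Gins1 stood at -0.39 ± 0.072 (adjusted p = 0.0217), with 0.19 and -0.20, and Rpa2 at -0.29 ± 0.066 (adjusted p = 0.0474), with 0.11 and -0.18. Over all members the interaction value was below 0 in 35 of 38, with a median of -0.12. Over all genes it was below 0 in 6289 of 11377, with a median of -0.02. The calls did not hold up to the loss of an array. None of the 3 was made without siNTC Ang II replicate 1, siGiver PBS replicate 2 or siGiver Ang II replicate 1, and 1 was made without siNTC PBS replicate 1, siNTC Ang II replicate 2, siGiver PBS replicate 1 or siGiver Ang II replicate 2. Without siNTC PBS replicate 2, Cdt1 passed and Gins1 and Rpa2 did not, and Rfc3 passed at -0.42.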

How the data were processed

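The authors deposited 1 log2 expression value per probe set and array. RMA and Partek are the tools in the submitters' processing notes, without versions. Per the labels' protocols, 5 ug of total RNA went into one-cycle labelling. RMA corrects background, quantile-normalizes arrays and summarises probes. The 8 array medians were 6.15 to 6.19. The number of arrays limits the precision, and no batch is given in the labels.

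Gene names came from GEO's platform annotation, updated by gene identifier. Of 31099 probe sets, 20826 carry 1 symbol (20758 matched a rat RefSeq gene), 436 several and 9780 none, and 57 are controls. Probe sets whose mean fell under the 30th percentile, 4.81, were left out, and each symbol kept its brightest. limma 3.58.1 in R 4.3.3 was fitted with 1 mean per group to all 8 arrays (4 residual degrees of freedom), and 6 contrasts were adjusted over 11377 genes by Benjamini-Hochberg, with adjusted p under 0.05 as a call. Scripts were tested on simulated data. Members and lists were chosen with earlier results of these data known. All members are accounted for. Array values are given for the 6 called members with the largest difference per contrast, for any called against the majority and for a few others chosen after their values were seen. In further lists up to 4 called genes with the largest differences, and a few others, are named. Promoters were read from RefSeq, build GRCr8.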

Additional observations from a re-analysis of the deposited data

Results flagged for a closer look

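The Ang II effect differed between siGiver and siNTC cells by a test of the difference itself for 3 of the 38 genes against 6.21% of all genes tested, a similar share. None of the 3 calls held in every fit that left out 1 array. The interaction was -0.40 log2 for Cdt1, -0.39 for Gins1 and -0.29 for Rpa2, and it was downward in each. The arrays of Cdt1 and Gins1 were higher with Ang II than with PBS in siNTC cells and lower in siGiver cells, as were those of Rpa2.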

How the results depend on the processing

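For the siRNA comparisons, the number of members called stayed within 1.5 times of 34 in PBS, 30 with Ang II and 34 averaged under every alternative run, and ranged over 31 to 33, 27 to 31 and 33 to 35 when 1 array was left out. The calls by Ang II and the interaction were less stable, and the cause was not tested. In siNTC cells, 2 calls became 1 without a filter, with the mean of probe sets, with every probe set on its own, with array medians subtracted, with only the arrays compared and with the added fold threshold, 5 with a 50th percentile filter, and 0 to 2 without 1 array. In siGiver cells, 7 became 3 without a filter or with array medians subtracted, 2 with only the arrays compared or with the added fold threshold, and 0 to 6 without 1 array. The interaction's 3 became 5 with trended, robust moderation and 0 to 2 without 1 array. Signs were compared for the 6 called members with the largest difference per contrast and for any called against the majority, and none changed. For the other differences named here, signs were not compared in this way. The probe sets of Tk1 and Ccne2 differ in sign, as given above. Orc1 was not tested with the 50th percentile filter, which its level does not pass. The fit to only the arrays compared was not run for the average and the interaction, which use all arrays.

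With the replicate number as a block, the calls were 1 in siNTC cells and 4 in siGiver cells by Ang II, and 2 for the interaction, where Rpa2 was lost (adjusted p = 0.0732). Replicate differences correlated between groups at -0.09 to 0.07, so no replicate effect shared between groups was visible. Whether the numbers pair the arrays cannot be told from this. Among the siRNA calls in PBS, those of Pold2 and Slbp were lost with the block and without a filter.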

Other observations

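Genes of mitosis, which follows S phase, were higher in siGiver cells as well. Of 23 measured, 23 were higher in PBS and 21 with Ang II, with medians of 0.55 and 0.53, and none was lower. Over all genes tested, 16.0% were called higher in PBS and 19.5% with Ang II. Kif11, a spindle motor, was higher by 0.84 ± 0.076 in PBS and 0.81 ± 0.076 with Ang II, Mki67, a proliferation marker, by 0.82 ± 0.057 and 0.78 ± 0.057, and Aurkb, a mitotic kinase, by 0.82 ± 0.053 and 0.59 ± 0.053. With Ang II, 4 of the 23 fell in siGiver cells and none rose, against 7.17% of all genes called lower and 9.11% higher. Bub1b and Nusap1 fell by -0.29 ± 0.055 and -0.28 ± 0.043. Whether these calls hold without 1 array was not tested.

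G1 cyclins and cell cycle brakes did not share a direction. Of 12 measured genes, 4 were higher and 4 lower in PBS, and 2 were higher and 5 lower with Ang II, with medians of -0.09 and -0.04. The shares over all genes tested were 16.0% higher and 19.1% lower in PBS, and 19.5% and 24.8% with Ang II. The lowest was Cdkn2b, an inhibitor of the cyclin D kinases, at -1.003 ± 0.054 in PBS and -1.10 ± 0.054 with Ang II. Cdkn1a, an inhibitor of cyclin-dependent kinases, was lower by -0.35 ± 0.049 and -0.70 ± 0.049, and Ccnd3 by -0.39 ± 0.048 and -0.33 ± 0.048. Cdkn2c was higher by 0.54 ± 0.055 and 0.38 ± 0.055. Cdkn1b did not pass in PBS and was lower with Ang II by -0.61 ± 0.059, and its interaction was -0.47 ± 0.084 (limma adjusted p = 0.0195).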
